A study of Gallus gallus with 6 samples.

Results

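FZD4 and FZD10 encode Frizzled receptors, and both were read on embryonic day 6 in the basilar papilla, the hearing organ of the chicken (Gallus gallus). They are 2 of 12133 genes tested and were chosen by name, with earlier results of these libraries known, from the authors' deposited tables of genes that differ between the groups. Their difference between the groups is therefore a description, and the calls of the fit given below are not read as a test of it. FZD10 carries its name in those tables, whereas FZD4 was found by its description, Frizzled-4, because the name field of that row holds only the digit 7. Papillas came from right otocysts infected on embryonic day 3. There were 3 pools with RCAS(A)-Wnt9a, an avian retrovirus that carries Wnt9a, and 3 pools with RCAS(A), the parent retrovirus, which served as the control. RCAS(A) is a replication-competent virus that both groups carry, and the labels do not say which cells of the papilla the virus reached. Each pool held RNA from 24 papillas and gave 1 library. The RCAS(A)-Wnt9a pools are numbered 1, 2 and 3 and the RCAS(A) pools 2, 3 and 4, as in their titles.

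Frizzled proteins are multi-pass membrane receptors whose extracellular cysteine-rich domain binds the lipid carried by Wnt ligands. With the co-receptors LRP5 or LRP6 they recruit Dishevelled and stabilise beta-catenin, which then acts with TCF and LEF factors in the nucleus, and they also serve beta-catenin-independent signals. FZD4 and FZD10 belong, with FZD9, to the same branch of the vertebrate family. FZD4 is best known as the receptor for norrin, a ligand that is not a Wnt, in the growth of retinal and inner ear vessels in mice. FZD10 is known from the chick dorsal neural tube, where it takes part in Wnt signalling.

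The libraries held 19200235 to 23017150 counts. WNT9A (ENSGALG00000005401), the ligand gene carried by the virus, had 1340, 539 and 427 CPM (counts scaled to the library total with TMM, the trimmed mean of M values) in RCAS(A)-Wnt9a pools 1, 2 and 3, against 7.90, 6.87 and 10.3 CPM in RCAS(A) pools 2, 3 and 4. Viral and endogenous WNT9A transcripts cannot be told apart in these counts. Named markers of the papilla were present, such as the prosensory transcription factor gene SOX2 at 50.3 ± 6.97 CPM with RCAS(A)-Wnt9a and 70.3 ± 2.23 CPM with RCAS(A) (SD, n = 3 each). Nothing in the labels ties a pool to a separate hatch or incubation, so the spread between pools is the only replicate error at hand.

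FZD4 (ENSGALG00000017242) is listed on chromosome 1 of galGal4, from 187935345 to 187939781, and no other listed gene overlapped it. Its level was 303, 336 and 378 CPM in RCAS(A)-Wnt9a pools 1, 2 and 3, against 176, 206 and 210 CPM in RCAS(A) pools 2, 3 and 4. All RCAS(A)-Wnt9a pools lay above all RCAS(A) pools, and pool 2 was the lowest of the RCAS(A) group. The means were 339 ± 37.4 CPM with RCAS(A)-Wnt9a and 197 ± 18.7 CPM with RCAS(A) (SD, n = 3 each). FZD4 was 1.72-fold higher with RCAS(A)-Wnt9a in the fitted model, a log2 fold change of 0.78 (SE 0.09). Within the groups FZD4 varied by a similar share of its mean, with a coefficient of variation of 11.0% among RCAS(A)-Wnt9a pools and 9.49% among RCAS(A) pools. In bulk RNA, a change in the number of cells that express a receptor and a change in its RNA per cell cannot be told apart.

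FZD10 (ENSGALG00000002652) is listed on chromosome 15 of galGal4, from 3411517 to 3413275, also with no overlapping gene. Its level was 27.2, 43.3 and 42.3 CPM in RCAS(A)-Wnt9a pools 1, 2 and 3, against 84.0, 86.6 and 81.2 CPM in RCAS(A) pools 2, 3 and 4. The groups again did not overlap, in the opposite direction, and RCAS(A)-Wnt9a pool 1 stood below the other pools of its group. The means were 37.6 ± 9.01 CPM with RCAS(A)-Wnt9a and 83.9 ± 2.70 CPM with RCAS(A) (SD, n = 3 each). FZD10 stood at 44.8% of its RCAS(A) level with RCAS(A)-Wnt9a in the fitted model, a log2 fold change of -1.16 (SE 0.16). Without RCAS(A)-Wnt9a pool 1 the log2 fold change was -0.97. The pools of the RCAS(A)-Wnt9a group were less alike for FZD10 than those of the control group, with a coefficient of variation of 23.9% among RCAS(A)-Wnt9a pools and 3.21% among RCAS(A) pools. Counting error of FZD10 was 3.21% to 4.07% of a count in RCAS(A)-Wnt9a pools and 2.27% to 2.46% in RCAS(A) pools, not far below the spread among RCAS(A) pools. For FZD4 it was 1.15% to 1.22% in RCAS(A)-Wnt9a pools and 1.49% to 1.57% in RCAS(A) pools.

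Both genes passed the threshold of the fit across all genes, edgeR's quasi-likelihood test with a Benjamini-Hochberg adjusted p under 0.05. In the 6 fits without 1 library FZD4 passed in 6 and FZD10 in 2. FZD10 missed the threshold without RCAS(A)-Wnt9a replicate 3 and without RCAS(A) replicate 2, 3 or 4 (highest edgeR adjusted p = 0.0729). With RCAS(A)-Wnt9a the full fit called 2.27% of genes tested, of which 1.43% were higher and 0.841% lower, as shares of all genes tested. Their pools did not overlap between the groups, which was so for 19.0% of genes tested. As the choice of genes used this contrast, nothing is read from these calls. By the size of the log2 fold change in either direction, FZD10 stood above 99.4% and FZD4 above 98.5% of genes tested. High ranks were likely in advance for the same reason, and nothing is read from them either. In the authors' deposited edgeR table the log2 fold changes were 0.78 for FZD4 and -1.16 for FZD10. In the authors' deposited DESeq2 table they were 0.67 (SE 0.08) for FZD4 and -0.84 (SE 0.10) for FZD10. A DESeq2 fit run here on the deposited counts gave 0.79 for FZD4 and -1.16 for FZD10. Why the deposited DESeq2 values are smaller was not tested.

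**Figure D1:**
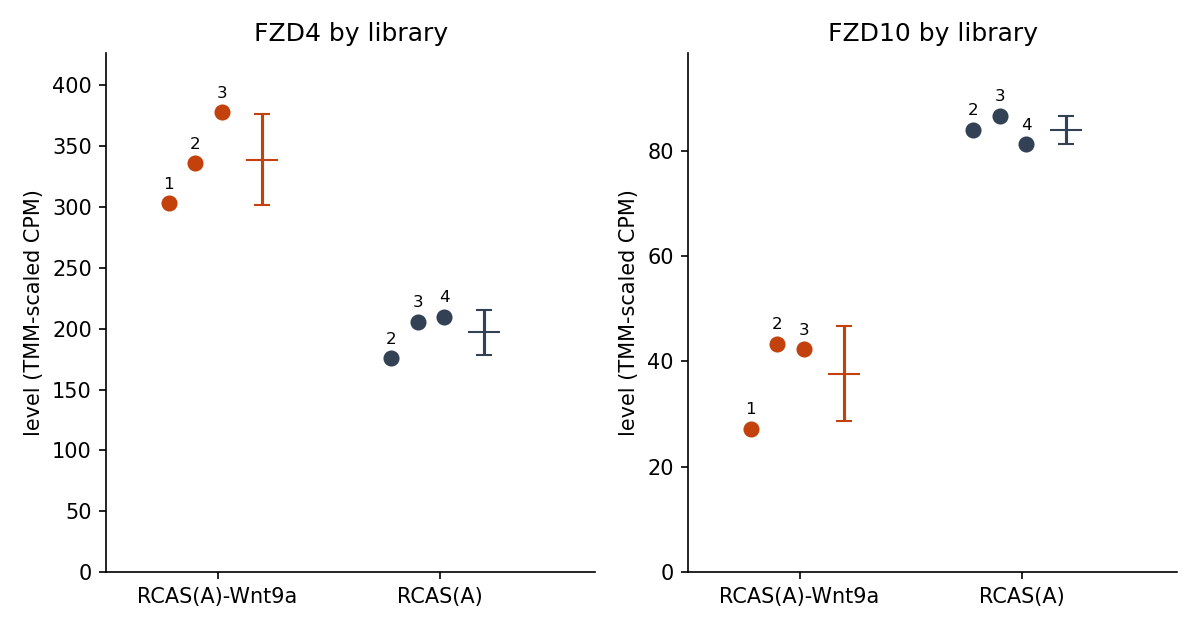
Level of FZD4 (left) and FZD10 (right) in TMM-scaled CPM in each RCAS(A)-Wnt9a and RCAS(A) library. Points are pools with their replicate number, and the bar beside them is the group mean ± SD (n = 3 each). RCAS(A)-Wnt9a pools sit above RCAS(A) pools for FZD4, at 303 to 378 CPM with RCAS(A)-Wnt9a against 176 to 210 CPM with RCAS(A). They sit below them for FZD10, at 27.2 to 43.3 CPM with RCAS(A)-Wnt9a against 81.2 to 86.6 CPM with RCAS(A).

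Levels of the receptors can be compared with each other only per length, for which the authors' pooled FPKM, a fragment count scaled for gene length and depth, gives 1 value per group with a lower and an upper bound. With RCAS(A)-Wnt9a, FZD4 stood at 101 FPKM (bounds 83.8 to 118) and FZD10 at 23.7 FPKM (19.0 to 28.5). With RCAS(A), FZD4 stood at 58.4 FPKM (48.6 to 68.3) and FZD10 at 52.3 FPKM (43.1 to 61.5). The bounds of the receptors were apart with RCAS(A)-Wnt9a, where the ratio of FZD4 to FZD10 was 4.25, and overlapped with RCAS(A), where it was 1.12. The summed FPKM of the pair was 125 with RCAS(A)-Wnt9a and 111 with RCAS(A). Among 11977 genes tested with an FPKM, FZD4 stood above 92.4% with RCAS(A)-Wnt9a and above 84.7% with RCAS(A). FZD10 stood above 60.8% with RCAS(A)-Wnt9a and above 82.7% with RCAS(A).

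The ratio of the receptors within a library does not depend on how libraries are scaled. FZD4 had 11.1, 7.76 and 8.93 counts for each FZD10 count in RCAS(A)-Wnt9a pools 1, 2 and 3, against 2.09, 2.37 and 2.59 in RCAS(A) pools 2, 3 and 4. FZD10 made up 9.91 ± 1.60% of the counts of the pair with RCAS(A)-Wnt9a and 29.96 ± 2.24% with RCAS(A) (SD, n = 3 each). The raw counts behind these ratios ran from 4068 to 7547 for FZD4 and from 605 to 1945 for FZD10. Dividing CPM by the length that counts and FPKM imply (3351 bases for FZD4 and 1591 bases for FZD10, averaged over the groups) gave a summed level of 125 ± 16.0 CPM per kilobase with RCAS(A)-Wnt9a and 112 ± 5.62 with RCAS(A) (SD, n = 3 each). The implied length ties these means to the FPKM sums by construction, and only their spread adds to them. The sums overlapped between the groups, at 108, 127 and 139 CPM per kilobase with RCAS(A)-Wnt9a against 105, 116 and 114 with RCAS(A). Each receptor on its own did not overlap, as was so for 19.0% of genes tested. That was likely in advance, because the receptors were chosen from genes that differ between the groups. The shift of the count ratio follows from the same choice, so nothing is read from either.

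**Figure D2:**
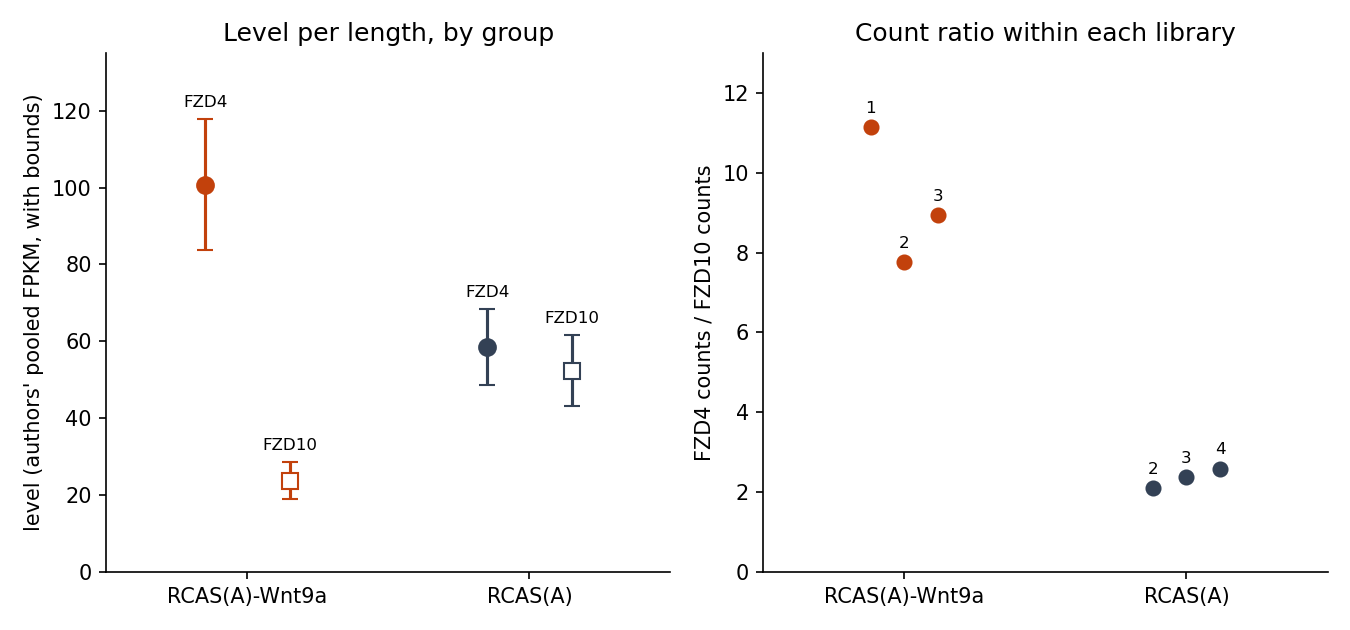
Left, the authors' pooled FPKM of FZD4 (filled circles) and FZD10 (open squares) in RCAS(A)-Wnt9a and RCAS(A), with the lower and upper bound the authors deposited. Right, counts of FZD4 divided by counts of FZD10 in each library, with the replicate number. The receptors differ 4.25-fold in FPKM with RCAS(A)-Wnt9a and 1.12-fold with RCAS(A), and the count ratio is 7.76 to 11.1 with RCAS(A)-Wnt9a against 2.09 to 2.59 with RCAS(A).

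Among the RCAS(A)-Wnt9a pools, pool 1 had both the highest WNT9A level, 1340 CPM, and the lowest FZD10 level, 27.2 CPM. Pools 2 and 3, with 539 and 427 CPM of WNT9A, had nearly equal FZD10 levels of 43.3 and 42.3 CPM. FZD4 also was lowest in pool 1, at 303 CPM, and highest in pool 3, at 378 CPM, where WNT9A was lowest. The receptors, which differed between the groups in opposite directions, thus were both lowest in the same RCAS(A)-Wnt9a pool. Over the deviations of the 6 libraries from their group means, the log2 CPM of FZD4 and FZD10 had r = 0.60. Without removing the group means, r over the libraries was -0.83. The RCAS(A) pools did not share this pattern, as pool 4 had the highest FZD4 level, 210 CPM, and the lowest FZD10 level, 81.2 CPM. The r of 0.60 thus reflects the RCAS(A)-Wnt9a pools. Both r values are descriptions over 6 libraries, and a relation with WNT9A was not tested.

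**Figure D3:**
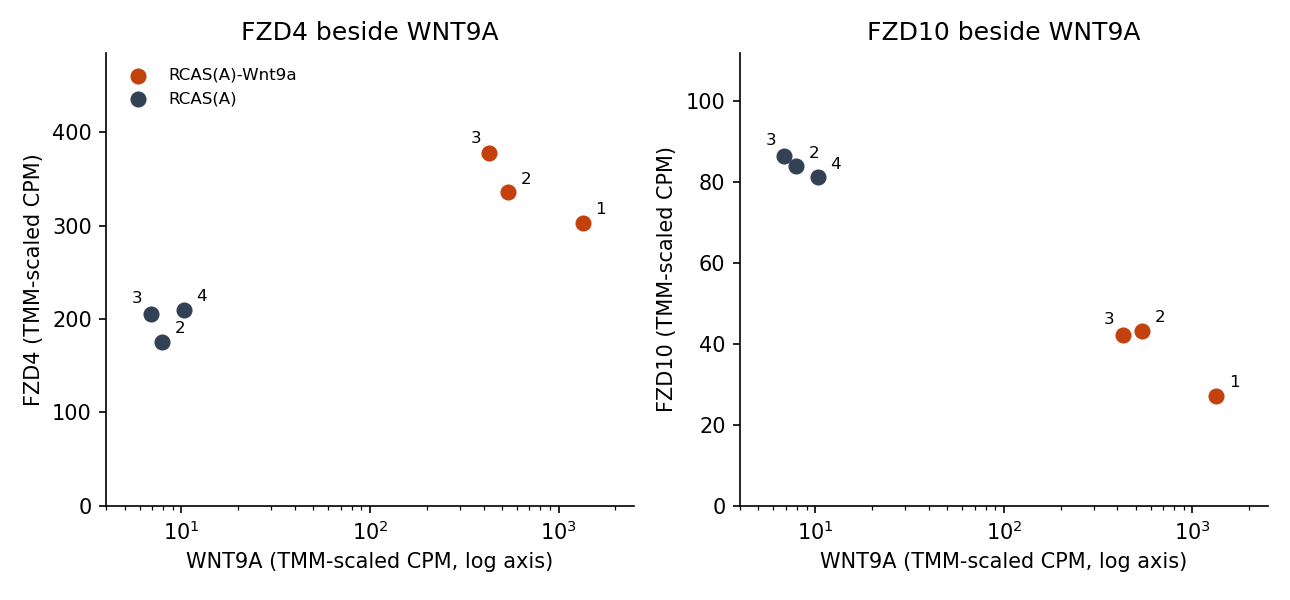
FZD4 (left) and FZD10 (right) in TMM-scaled CPM against WNT9A in TMM-scaled CPM on a log axis, 1 point per library with its replicate number. The RCAS(A)-Wnt9a library with 1340 CPM of WNT9A has the lowest level of both receptors within its group, 303 CPM for FZD4 and 27.2 CPM for FZD10.

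The genes most like each receptor were ranked by Pearson r of log2 CPM over the 6 libraries, among 455 named genes with an average log2 CPM of at least 1. Only genes that the authors' tables list carry a name, and the libraries form separate groups, so r mostly follows the difference between the groups. The r of the deviations from the group means is therefore given beside it. It comes from the same libraries that set the ranking, so a high value was likely in advance and is no separate check. TRABD2B, which encodes a membrane metalloprotease known from frog embryos and human cells to cleave Wnt proteins, was most like FZD4 (r = 0.997, within groups 0.97). No other of the 10917 genes at that expression level, named or not, had a higher r with FZD4. TRABD2B averaged 102 ± 3.96 CPM with RCAS(A)-Wnt9a and 81.0 ± 3.10 CPM with RCAS(A) (SD, n = 3 each), a log2 fold change of 0.33. The next were the thioredoxin reductase gene TXNRD3 (r = 0.99), the adhesion gene MPZL2 (0.99), the growth factor gene PDGFA (0.98) and AXIN2 (0.98), a beta-catenin target and feedback inhibitor. Their log2 fold changes, 0.21 for TXNRD3, 0.45 for MPZL2, 0.52 for PDGFA and 0.33 for AXIN2, were all below that of FZD4, 0.78. TXNRD3 missed the threshold (edgeR adjusted p = 0.0771). Without 1 library, the calls of MPZL2 and PDGFA held in 6 of 6 fits, that of TRABD2B in 5 and that of AXIN2 in 3.

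FZD10 was most like TECTB, the beta-tectorin gene, whose product is part of the tectorial membrane (r = 0.999, within groups 0.995), and no gene at that expression level had a higher r. TECTB averaged 2.78 ± 1.83 CPM with RCAS(A)-Wnt9a and 48.8 ± 8.63 CPM with RCAS(A) (SD, n = 3 each), a log2 fold change of -4.14. Its level thus shared the order of the libraries with FZD10 but not the size of the difference. TECTB was near the floor in RCAS(A)-Wnt9a pools 1, 2 and 3, at 0.72, 4.23 and 3.40 CPM. Its call held in 2 of 6 fits without 1 library (highest edgeR adjusted p = 0.110). SLC9A4, a sodium and proton exchanger gene (r = 0.997, log2 fold change -1.10), was the closest to FZD10 in size among the 4 genes given here. The kinase gene ALPK2, at a log2 fold change of -1.40, and DLK1, a Notch-related membrane protein gene, at -1.28, each had r of at least 0.99. The within-group r of these 4 genes with FZD10 ran from 0.96 to 0.995, and for the 5 genes most like FZD4 it ran from 0.72 to 0.97. Like FZD10, all 4 genes were lowest in RCAS(A)-Wnt9a pool 1, where SLC9A4 had 10.8, ALPK2 3.02 and DLK1 8.01 CPM. FZD10 varied little among RCAS(A) pools, so the within-group r of these genes with FZD10 rests mostly on that 1 pool.

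The genes beside FZD10 on chromosome 15 also differed between the groups, in opposite directions. PIWIL1, a gene of the PIWI family known for small RNA pathways of the germline, ends 67828 bases before FZD10 as listed. It had 7.38, 12.6 and 10.3 CPM in RCAS(A)-Wnt9a pools 1, 2 and 3, against 21.1, 19.3 and 19.2 CPM in RCAS(A) pools 2, 3 and 4. It fell by 0.98 on the log2 scale with RCAS(A)-Wnt9a (SE 0.16, edgeR adjusted p = 0.00635), and its lowest library was the same as that of FZD10. TMEM132D, a transmembrane protein gene, starts 119688 bases after FZD10. It had 43.7, 37.5 and 37.9 CPM in RCAS(A)-Wnt9a pools 1, 2 and 3, against 23.9, 16.6 and 22.2 CPM in RCAS(A) pools 2, 3 and 4. It rose by 0.93 (SE 0.12, edgeR adjusted p = 0.00198) with RCAS(A)-Wnt9a. Both calls held in all 6 fits without 1 library. Both genes are in the authors' tables, which is why their names are known here.

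Of the 6 tested genes listed within 250000 bases of FZD10, PIWIL1 and TMEM132D were the 2 called, beside 2.27% of all genes tested. The other 4 had log2 fold changes between -0.29 and 0.07, and 3 of these are listed under a single shared locus. Around FZD4, 0 of 3 tested genes were called at adjusted p under 0.05, although all 3 had an unadjusted p under 0.05. Their log2 fold changes were 0.21 and -0.24 for the nearest gene on either side, which carry no name in the files, and -0.25 for ME3, a malic enzyme gene. In RefSeq's GRCg7b annotation the protein-coding neighbours of FZD10 are PIWIL1 and TMEM132D too, and those of FZD4 are TMEM135 and PRSS23.

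**Figure D4:**
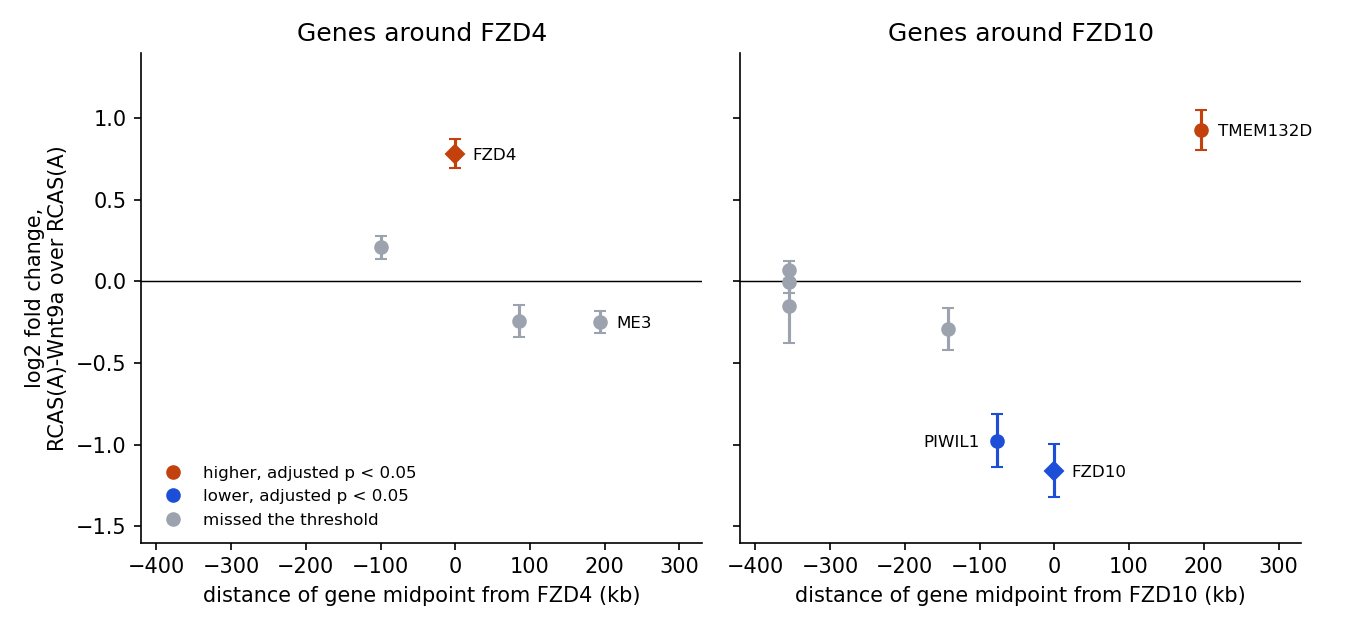
Log2 fold change of RCAS(A)-Wnt9a over RCAS(A), with its SE, of tested genes listed within 250000 bases of FZD4 (left) and FZD10 (right), against the distance of gene midpoints in kilobases. Diamonds are the receptors, and colours mark genes past the threshold. PIWIL1 at -0.98 and TMEM132D at 0.93 stand on either side of FZD10, while the genes around FZD4 lie between -0.25 and 0.21.

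The other genes of the pathway were read from 6 lists of 136 distinct genes. A name was at hand for 25 of them, FZD4 and FZD10 included, because only genes in the authors' tables of changed genes are named in the files. Of the other 23, 12 rose, 3 fell and 8 missed the threshold (edgeR quasi-likelihood test, adjusted p under 0.05), beside 2.27% of all genes called. Since a place in those tables gave the names, this share is not evidence on the pathway. Their median log2 fold change was 0.33, against -0.004 over all genes tested. WNT9A, which the virus carries, is 1 of the 12 that rose and is part of this median. A rise of WNT9A was set by the design and is not read as a response of the pathway. Any part of it from the endogenous gene cannot be told apart in these counts. Without RCAS(A) replicate 2 the number called dropped to 7 and without RCAS(A)-Wnt9a replicate 2 to 9. The calls that held in all 6 fits without 1 library were those of 7 genes: RSPO3, SFRP2, NOTUM, ZNRF3, NKD1, TCF7 and LEF1. The other 8, WNT9A, RSPO2, APCDD1, GPC3, AXIN2, RAC3, RHOU and PYGO1, were all lost without RCAS(A) replicate 2, and their highest adjusted p in these fits ran from 0.0568 for APCDD1 to 0.184 for RHOU.

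Of the 10 Frizzled genes of the receptor list, FZD4 and FZD10 are the 2 with a name, and the others were not analysed here. The third named gene of that list was LGR5, an R-spondin receptor gene and Wnt target, at 650 ± 72.2 CPM with RCAS(A)-Wnt9a and 539 ± 35.3 CPM with RCAS(A) (SD, n = 3 each). LGR5 had a log2 fold change of 0.27 and missed the threshold (edgeR adjusted p = 0.14). Among ligand genes, RSPO3, an R-spondin that keeps Frizzled receptors at the cell surface, fell by 1.88 on the log2 scale and RSPO2 by 0.49 (edgeR adjusted p = 0.000101 and 0.0237). WNT7B, a Wnt ligand gene, missed the threshold at a log2 fold change of -0.36 (edgeR adjusted p = 0.128). FZD10 and the R-spondin genes thus had lower levels in the same pools in which FZD4 was higher.

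Genes that act on Frizzled proteins themselves were few among the named ones. ZNRF3, a membrane ubiquitin ligase that removes Frizzled receptors from the cell surface, had 41.2 ± 4.68 CPM with RCAS(A)-Wnt9a and 25.9 ± 0.97 CPM with RCAS(A) (SD, n = 3 each). It rose by 0.67 on the log2 scale (SE 0.09, edgeR adjusted p = 0.00133). SHISA2, whose relatives in frog embryos hold Frizzled proteins in the endoplasmic reticulum, had a log2 fold change of -0.71 and missed the threshold (edgeR adjusted p = 0.0886). SFRP2, a secreted protein with a Frizzled-like cysteine-rich domain, fell by 0.41 (edgeR adjusted p = 0.00231). NOTUM, which strips the lipid that Frizzled proteins bind from Wnt ligands, rose by 1.49 (edgeR adjusted p = 2.01e-06). WIF1, which encodes a secreted Wnt-binding protein, missed the threshold at a log2 fold change of 0.72 (edgeR adjusted p = 0.0607).

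Downstream of the receptors, the feedback inhibitor gene NKD1, whose product binds Dishevelled, rose by 0.49 on the log2 scale and AXIN2 by 0.33 (edgeR adjusted p = 0.000903 and 0.0148). The transcription factor genes TCF7 and LEF1 rose by 1.70 and 0.50 (edgeR adjusted p = 0.00306 and 0.000903). The level of TCF7 was low, at 4.30 ± 1.18 CPM with RCAS(A)-Wnt9a and 1.33 ± 0.28 CPM with RCAS(A) (SD, n = 3 each). SP5, a zinc finger target of beta-catenin, had 2.89 ± 1.30 CPM with RCAS(A)-Wnt9a and 1.23 ± 0.26 CPM with RCAS(A) (SD, n = 3 each) and missed the threshold (edgeR adjusted p = 0.0762). In the cytoplasmic list 4 of 6 named genes rose and 0 fell, and in the nuclear list 4 of 7 rose and 0 fell, with AXIN2 in both, beside 1.43% of all genes tested called higher. These genes too are named only because the authors' tables hold them. In the fits without 1 library NKD1 of the first list and TCF7 and LEF1 of the second held throughout. Between these lists the size of the FZD4 difference, 0.78, was exceeded among called genes by TCF7 alone.

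**Figure D5:**
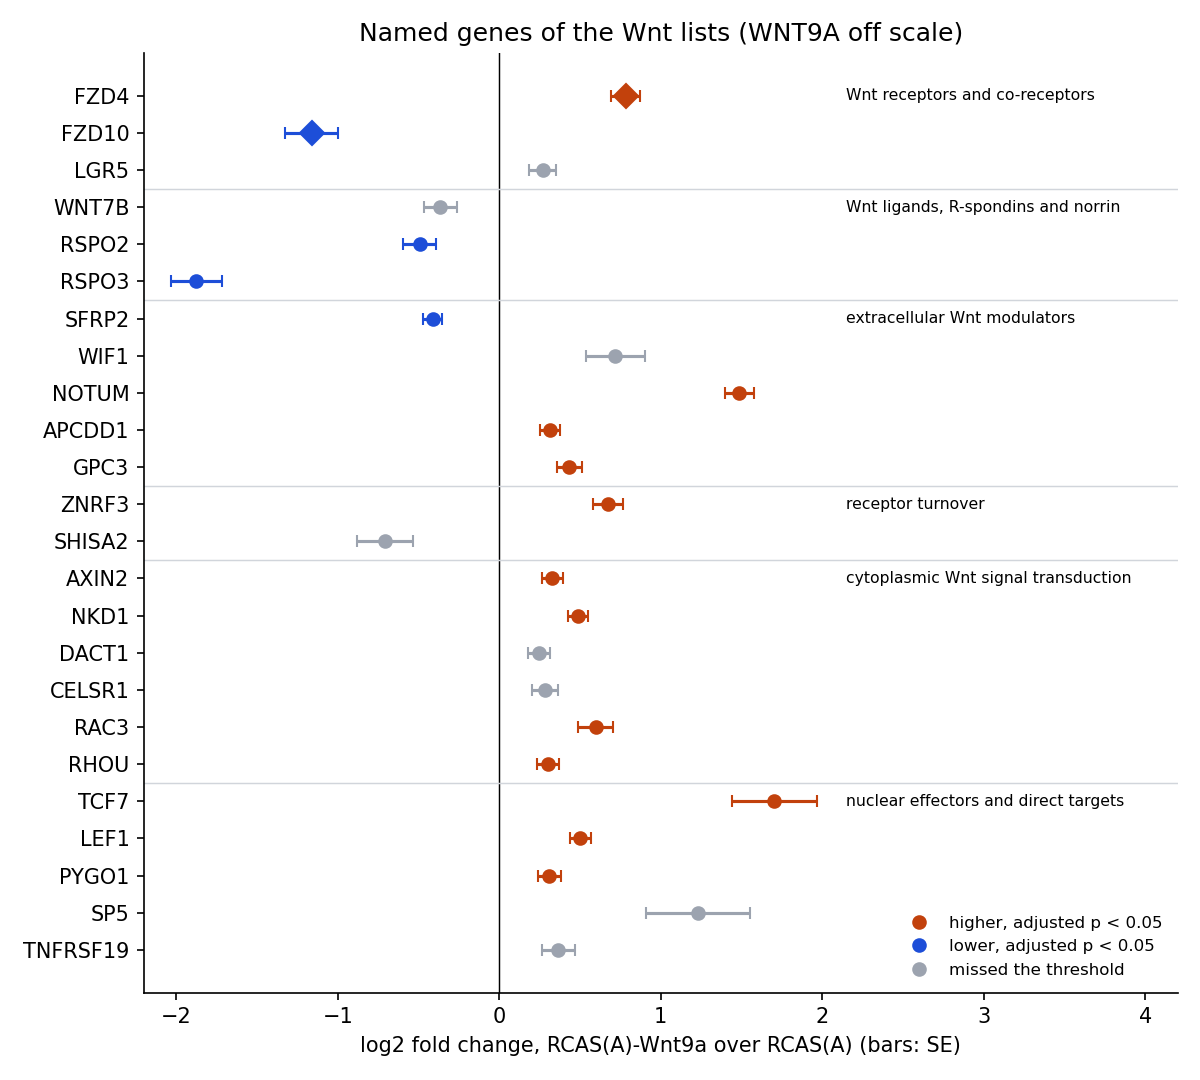
Log2 fold change of RCAS(A)-Wnt9a over RCAS(A), with its SE, for the named genes of 6 Wnt lists, grouped by list, with WNT9A (6.53) left off. Diamonds mark FZD4 at 0.78 and FZD10 at -1.16. Colours mark genes past or short of the threshold, and RSPO3 at -1.88 and TCF7 at 1.70 lie furthest from 0.

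Named markers of cell types were read beside the receptors, and their part in the FZD4 and FZD10 differences was not tested. A marker has a name here only where the authors list it as changed, so a marker that could be read was likely to differ, and the counts below are no evidence on cell types. Over all genes tested, 1.43% were called higher and 0.841% lower. Of 20 endothelial list genes, read because FZD4 serves vessels, 3 had a name. FLT1 had a log2 fold change of 0.39, ANGPT1 one of -0.57 and ANGPT2 one of -0.48. Their summed level was 87.7 to 91.9 CPM with RCAS(A)-Wnt9a and 103 to 117 CPM with RCAS(A). As the 3 genes did not share a direction, this sum is no measure of endothelium. The call of FLT1 was lost in each of the 6 fits without 1 library and that of ANGPT1 without RCAS(A) replicate 3 (highest edgeR adjusted p = 0.164 for FLT1 and 0.0533 for ANGPT1).

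Of 18 prosensory and supporting cell genes 8 had a name, of which PAX2 was called higher, SOX2, HES5, TECTB, SPARCL1 and ISL1 were called lower, and PROX1 and HEY1 missed the threshold. The 5 called lower became 2, SPARCL1 and ISL1, without RCAS(A) replicate 4, and the call of PAX2 was lost in 5 of 6 fits without 1 library. The summed level of the 8 genes was 663 to 816 CPM with RCAS(A)-Wnt9a and 978 to 1014 CPM with RCAS(A). Most of this sum was HEY1, which missed the threshold, at a mean of 478 CPM with RCAS(A)-Wnt9a and 588 CPM with RCAS(A). Of 8 nonsensory epithelium genes 7 had a name, with 6 called higher, 0 called lower and OTX2, at a log2 fold change of -0.34, short of the threshold. Without RCAS(A) replicate 2 the 6 became 4, as GATA2 and FGF19 were lost. Of the 6 fits without 1 library, the call of GATA2 held in 1 and that of FGF19 in 3. Together the 7 genes had 870 to 891 CPM with RCAS(A)-Wnt9a and 606 to 622 CPM with RCAS(A). The largest part of this sum was GATA2, at a mean of 470 CPM with RCAS(A)-Wnt9a and 374 CPM with RCAS(A).

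The 3 named of 14 hair cell genes did not share a direction. CIB2 and ATP2B2 had log2 fold changes of -0.60 and -0.45, and both calls were lost without RCAS(A) replicate 2 or 4, while PCDH15 had one of 0.54 and missed the threshold. Their sum was 60.2 to 71.2 CPM with RCAS(A)-Wnt9a and 83.0 to 85.6 CPM with RCAS(A). Of 18 periotic mesenchyme genes 7 had a name. PRRX1 and HAPLN1 were called higher in the full fit and in all 6 fits without 1 library, LUM was called lower at a log2 fold change of -0.52 but in 1 of those 6 fits alone, and TBX18, COL1A2, PDGFRA and ACAN missed the threshold. Their sum, 1122 to 1335 CPM with RCAS(A)-Wnt9a and 972 to 1041 CPM with RCAS(A), was mostly COL1A2, TBX18 and PDGFRA. Ganglion neurons had 2 named genes of 13, ISL1 and NTRK2, both called lower in all 6 fits without 1 library. Their sum was 165 to 179 CPM with RCAS(A)-Wnt9a and 225 to 261 CPM with RCAS(A). ISL1 is also in the prosensory list above, so the lists are not separate readings. It was the larger part of the neuron sum, at a mean of 103 CPM with RCAS(A)-Wnt9a and 146 CPM with RCAS(A). CDH19, the 1 named of 8 glia and neural crest genes, had 12.3 to 17.1 CPM with RCAS(A)-Wnt9a and 9.62 to 10.5 CPM with RCAS(A). TFRC, the 1 named of 15 blood genes, had 151 to 161 CPM with RCAS(A)-Wnt9a and 129 to 137 CPM with RCAS(A). CDH19 and TFRC were called higher in the full fit but each in only 1 of the 6 fits without 1 library. The highest edgeR adjusted p in these fits was 0.181 for CDH19 and 0.171 for TFRC. No named marker was at 0, and list genes without a name, which include KDR, CDH5 and PECAM1 of endothelium, were not analysed here.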

How the data were processed

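Per the file headers, the deposited count table gives each library's counts by Ensembl gene identifier. The submitters' processing notes list galGal4 as the build and TopHat2, DESeq, DESeq2 and edgeR as tools. Libraries were made with a stranded Illumina kit, per the labels' protocols. How reads were counted, with which annotation and whether by strand, is not given in the sources used here. Per the file headers, the authors' DESeq2 table has a normalized mean signal, a log2 fold change with its SE, a Wald score and p-values for each gene. The authors' edgeR table has log2 fold changes, mean expression on a log2 scale and p-values. The deposited FPKM table has 1 pooled FPKM per group with bounds, which allows no test.

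Genes kept by filterByExpr (12133 of 15955) entered a two-sided glmQLFTest (robust glmQLFit, TMM scaling) of edgeR 4.0.16 in R 4.3.3, after a check on simulated data. The SE is the size of the log2 fold change over the square root of F. Alternatives used DESeq2 1.42.0, voom of limma 3.58.1, other scalings and filters, a replicate block and each library left out. Names come from the authors' tables and RefSeq GRCg7b (491 of 522 genes). Genes named are the receptors, WNT9A, the list members, the 5 named genes most like each receptor (1 of them is not reported here) and the nearest listed genes. Members and lists were chosen with earlier results of these data known. The labels name no molecular identifiers, so counting error covers counting alone. Tables were made with Python 3.11.15 and pandas 2.3.3.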

Additional observations from a re-analysis of the deposited data

How the results depend on the processing

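The log2 fold changes of FZD4 and FZD10 kept their sign under all alternatives run, which was near fixed in advance as their groups do not overlap. They also stayed within 1 SD of the replicate spread from the value of the main fit. That too was likely in advance, because all these fits reuse the same counts, and it is no separate check. Across other tests, scalings and filters and the replicate block, FZD4 lay between 0.78 and 0.91 and FZD10 between -1.20 and -0.99. The authors' deposited DESeq2 values, 0.67 for FZD4 and -0.84 for FZD10, lie outside these ranges. Leaving out 1 library gave 0.70 to 0.86 for FZD4 and -1.28 to -0.97 for FZD10. The ratio of FZD4 to FZD10 from CPM and implied length, 4.40 with RCAS(A)-Wnt9a and 1.12 with RCAS(A), returns the FPKM ratio by construction and is no check of it.

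Genes called numbered 276, and 146 to 294 without 1 library, lowest without RCAS(A) replicates 2 (148) and 4. DESeq2 called 439 of 12133 genes tested. The other 23 Wnt list genes gave 15 calls, 7 to 16 without 1 library and 22 with DESeq2. These genes have a name only because the authors' edgeR or DESeq2 tables list them as changed. Many calls among them were thus likely in advance, above all with DESeq2. Causes were not tested. The title numbers are shared only for 2 and 3, where the r of deviations from the group means was -0.01 and 0.19, too few pairs to show a pairing. With a replicate block the fit used those 4 libraries and called 506 genes and 20 of the Wnt list genes. Its log2 fold changes were 0.91 for FZD4 and -0.99 for FZD10. The block leaves very little in these libraries from which to estimate replicate error, so the larger counts are not read as a gain from blocking. Only genes the authors call changed are named, so 8 of 10 Frizzled genes could not be read by name.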
